A study of Mus musculus with 5 samples.

Results

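The genes of glycolysis and of pyruvate use were examined in quiescent satellite cells, the resting stem cells of skeletal muscle, sorted from mdx and wild-type mice. Mdx mice lack functional dystrophin and are a model of Duchenne muscular dystrophy. The data are total RNA-seq of 3 mdx libraries and 2 wild-type libraries from FACS-purified cells. The labels give the genotype and the cell type and no other agent or allele. They do not say whether libraries of a group came from separate mice, so the spread behind each p-value is that of these libraries and may be technical. The members were the protein-coding rows of the deposited table whose symbol was among 36 chosen glycolysis and pyruvate genes. All 36 symbols were found, in 37 of 22683 rows, because Aldoa had 2 Ensembl entries.

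Glycolysis splits glucose into pyruvate in the cytosol and yields ATP without oxygen. Pyruvate is then either reduced to lactate by lactate dehydrogenase and exported, or carried into mitochondria and oxidized by the pyruvate dehydrogenase complex. Pyruvate dehydrogenase kinases switch that complex off. Many steps are served by several isozymes encoded by separate genes, some of them typical of mature muscle fibers. Resting satellite cells are described as relying more on mitochondrial oxidation, and activated ones as turning toward glycolysis.

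Values are normalized counts: the authors scaled each library's reads per gene by 1 size factor and rounded the result. Library totals ranged from 12473348 to 15930638 in mdx and were 15217054 and 16825045 in wild type. The 37 rows together took 0.165% to 0.263% of the total in mdx and 0.235% and 0.2% in wild-type libraries 1 and 2. Genotypes were compared by limma on log2(normalized count + 2), with p-values adjusted over all tested genes and called under 0.05. The pseudocount of 2 understates the folds of low genes. Means are given ± SD, with n = 3 for mdx and n = 2 for wild type.

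Xist, expressed from the inactive X of females, was at 0, 0 and 12 in mdx and at 30235 and 30176 in wild type. The 4 Y-linked genes were at 430 or more in every mdx library and at 9 or less in wild type. Genotype and sex cannot be told apart in these libraries. None of the 4 X-linked members, Pgk1, Pdha1, Pdk3 and Pfkfb1, was called by limma (unadjusted p = 0.0828, 0.487, 0.875 and 0.728). The called members were all autosomal, and the part of sex in their differences could not be tested here.

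Markers of several cell types differed between the libraries. Of all tested genes, limma called 14.6% as higher in mdx and 10.3% as lower. Of 10 satellite cell markers, 6 were lower and 1 higher in mdx, and they summed to 33955 to 47132 normalized counts in mdx and 85940 and 75804 in wild type. Sdc4 was the largest of them in wild type, at 30886 and 27833, against 3261, 2633 and 2916 in mdx. Pax7 lay the other way, at 12767, 9751 and 14989 in mdx against 9103 and 7644 in wild type, without a call (limma adjusted p = 0.0698). Itga7 was the 1 called as higher. These 3 genes were chosen after their values were seen. None of the 10 was at 0 in all libraries of a genotype. Endothelial markers were higher in 9 of 10 cases and summed to 20953 to 28401 in mdx, against 3375 and 2885 in wild type, where 3 were at 0 in both libraries. Macrophage markers were higher in 9 of 10 cases, at 10374 to 15551 in mdx against 416 and 596 in wild type, where 5 were at 0 in both. Those of fibro-adipogenic progenitors were higher in 9 of 10 cases, at 81891 to 144618 in mdx against 26824 and 18433 in wild type, where 0 of 10 were at 0 in both. Red blood cell markers were called as higher in 1 of 5 cases. They summed to 837, 49 and 242 in mdx and 8 and 15 in wild type, where 4 of 5 were at 0 in both. The part of these markers in the differences of the members was not tested. In bulk RNA, fewer cells of a type and less RNA per cell cannot be told apart.

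Limma called 6 members as lower and 3 as higher in the mdx libraries. Of the 36 member rows that passed the filter on low values, 9 were called, which is 25%, against 24.9% of all 18199 tested genes. The share of members called is therefore that of the background. Slc2a3, Slc16a1, Ldha, Pdhb, Pdk1 and Pdk4 fell in mdx (6 rows, 16.7%, against 10.3% of all tested genes and 10.2% of protein-coding ones). Hk1, Pfkfb3 and Eno3 rose (3 rows, 8.33%, against 14.6% of all tested genes and 18.2% of protein-coding ones). The other 27 were not called, and 5 of these (Slc16a3, Pfkp, Pfkfb2, Gapdh and Ldhb, all lower in mdx) had an unadjusted limma p under 0.05. After a correction for transcript length and GC content 1 member was called as higher and 10 as lower, and the calls over all genes were 1772 higher and 2003 lower instead of 2659 and 1868. The second Aldoa entry, at 6, 12 and 0 in mdx and at 0 in both wild-type libraries, was not tested.

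Over the 36 tested members the log2 fold change ranged from -2.91 to 2.69 and had a median of -0.25, beside a median of 0.14 over all tested genes. For 13 members every mdx library was below both wild-type ones, which is 36.1%, against 23.8% of tested genes. For 6 members every mdx library was above both, which is 16.7%, against 28.2% of tested genes. No test of the list as a whole was made.

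**Figure D1:**
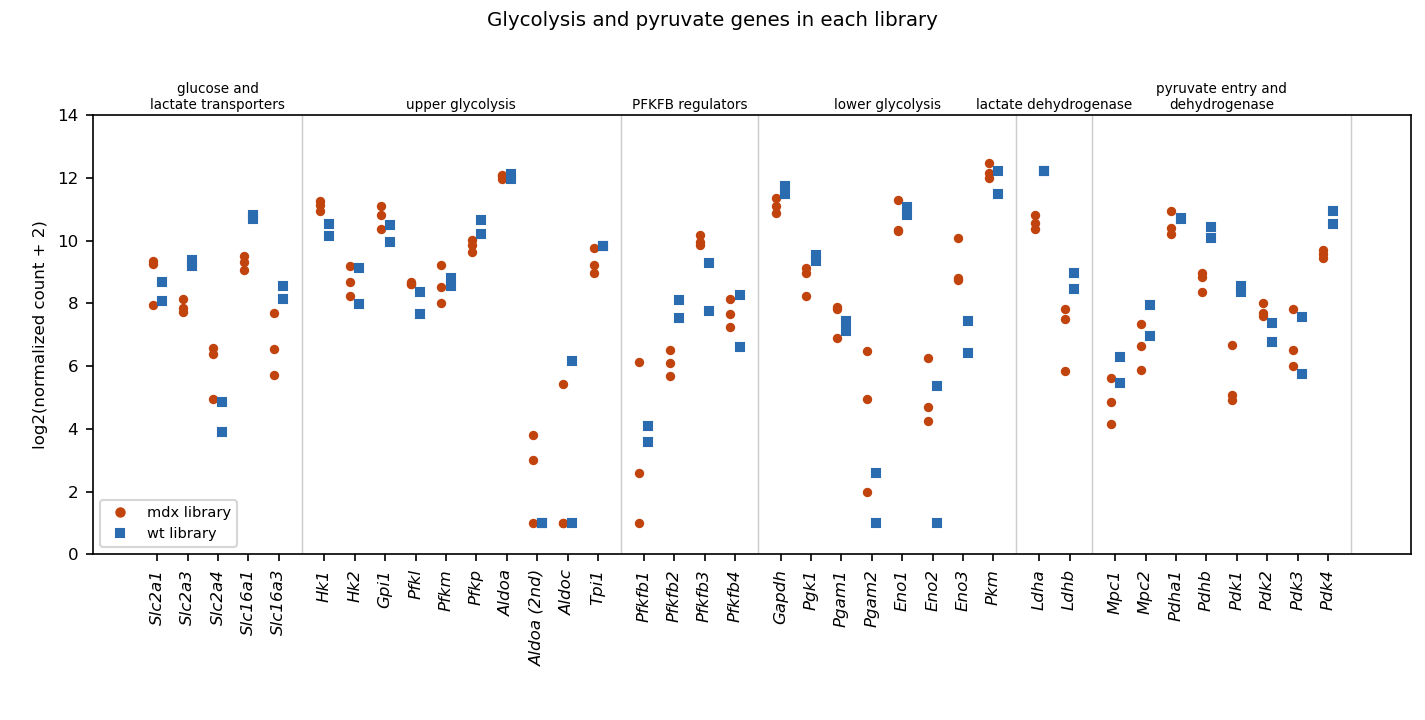
Each point is 1 library, with the normalized count on a log2 scale (log2 of the count + 2) for every member, grouped by role. Mdx libraries are circles and wild-type libraries are squares. Ldha, Slc16a1 and Pdhb have all mdx libraries below both wild-type libraries, whereas Eno3 has them above.

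**Figure D2:**
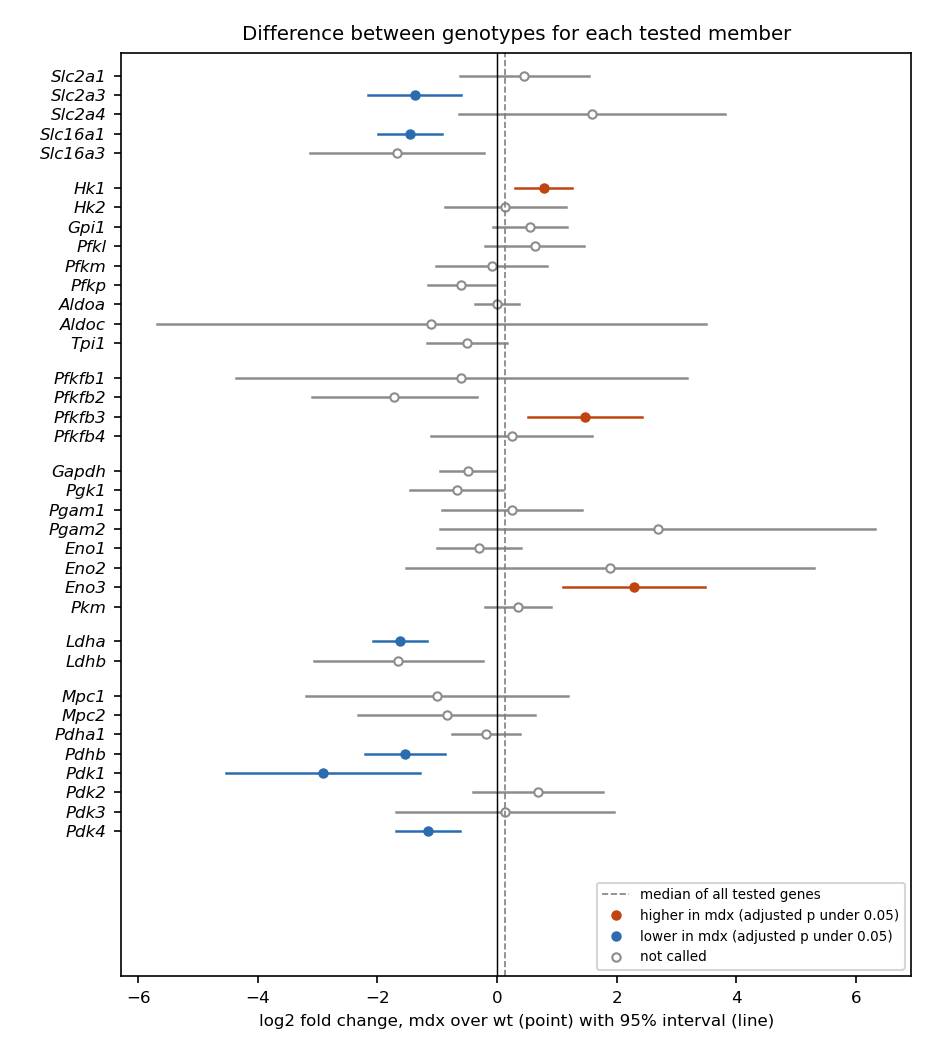
Log2 fold change of mdx over wild type for the 36 tested members, with 95% intervals from the limma fit and the median of all tested genes as a dashed line. The 6 filled blue points are lower in mdx, the 3 filled orange points are higher, and open grey points were not called. The widest intervals are those of Aldoc, Pfkfb1 and Pgam2.

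Promoter sequences of called members are shown because these genes moved in opposite directions, and their letters can be set side by side. RefSeq start sites (GRCm38.p6, the assembly behind mm10) were found for 34 of the 36 symbols. The windows shown are the 250 bases before the start for the 5 called members whose window holds no base of the gene as the table places it. They are written 5′ to 3′ on the gene's strand. Capitals mark ACGTG or its reverse complement, 1 form of the core of the sites bound by the hypoxia-inducible factors. The form GCGTG was neither marked nor counted, so a window without a match can still hold it, as that of Pdk1 does. An ACGTG on each strand can overlap and then reads CACGTG.
Ldha (lower in mdx), chr7:46845554-46845803, plus strand: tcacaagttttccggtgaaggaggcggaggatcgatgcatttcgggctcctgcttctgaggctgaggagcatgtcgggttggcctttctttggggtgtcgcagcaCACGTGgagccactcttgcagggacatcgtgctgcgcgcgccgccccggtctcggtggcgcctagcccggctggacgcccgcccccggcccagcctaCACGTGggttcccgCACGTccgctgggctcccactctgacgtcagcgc
Slc16a1 (lower in mdx), chr3:104638414-104638663, plus strand: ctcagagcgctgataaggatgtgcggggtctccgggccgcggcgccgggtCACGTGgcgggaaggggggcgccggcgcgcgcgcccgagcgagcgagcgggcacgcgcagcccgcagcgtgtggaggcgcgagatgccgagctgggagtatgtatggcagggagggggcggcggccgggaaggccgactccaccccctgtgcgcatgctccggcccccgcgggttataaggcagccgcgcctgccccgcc
Pdk1 (lower in mdx), chr2:71872974-71873223, plus strand: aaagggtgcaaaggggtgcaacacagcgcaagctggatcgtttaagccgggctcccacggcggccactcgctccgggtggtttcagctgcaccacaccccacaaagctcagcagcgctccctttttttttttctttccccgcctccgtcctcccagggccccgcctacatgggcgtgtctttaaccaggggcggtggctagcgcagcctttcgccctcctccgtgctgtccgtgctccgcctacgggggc
Eno3 (higher in mdx), chr11:70656926-70657175, plus strand: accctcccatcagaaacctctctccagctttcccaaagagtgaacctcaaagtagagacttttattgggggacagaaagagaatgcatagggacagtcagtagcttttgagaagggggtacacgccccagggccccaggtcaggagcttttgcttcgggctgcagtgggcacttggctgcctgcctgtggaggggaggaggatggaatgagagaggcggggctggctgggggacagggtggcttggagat
Hk1 (higher in mdx), chr10:62379909-62380158, minus strand: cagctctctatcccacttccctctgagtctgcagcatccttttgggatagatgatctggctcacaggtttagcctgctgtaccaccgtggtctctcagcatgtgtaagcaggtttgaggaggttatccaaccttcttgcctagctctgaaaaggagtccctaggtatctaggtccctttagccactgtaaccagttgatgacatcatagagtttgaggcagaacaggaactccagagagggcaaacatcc
The Ldha window held 5 matches counted on both strands, starting at -145, -144, -48, -47 and -34 from the start site. That of Slc16a1 held 2, at -200 and -199, and those of Pdk1, Eno3 and Hk1 held none. The windows of 3 more called members are not shown because they reach into the gene. Of these, Pfkfb3 (higher in mdx) held 1 match, at -60. Pdhb (lower) held 1, at -248, and Pdk4 (lower) held none. Over windows of the same length, 12 of 34 member promoters held at least 1 match, or 35.3%, against 16.6% of 32851 promoters in the table. Each member gave 1 start site, the one nearest its gene start, whereas no such choice was made among the 32851. Whether these start sites are the ones used in the sorted cells was not examined. Some of the 34 member windows reach into the gene, and those of Gapdh, Pfkfb2 and Slc16a3 lie wholly inside it. By call, 3 of the 5 lower members with a start site, 1 of the 3 higher members and 8 of the 26 uncalled members held one. The longer word CACGTG occurred in 4 of 34 member windows (11.8%) and in 6.02% of all windows. Other words, also read on both strands, differed too: GGGCGG, the core of GC boxes, occurred in 18 member windows (52.9%) and in 32.7% of all windows, and TATAAA in 2 (5.88%) and in 12.4%. Base make-up was not matched between member and other windows. A match is a description of letters and does not show that a factor binds there.

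Among the carriers of glucose and lactate, 2 of 5 fell in mdx and none was called as higher. Of all tested genes, 10.3% were called as lower and 14.6% as higher. Counts by step, here and below, rest on few genes and are not read as results about a step. Slc16a1 encodes MCT1, which moves lactate and pyruvate across the cell membrane. It had 644, 727 and 538 normalized counts in mdx 1, 2 and 3, against 1818 and 1652 in wild type 1 and 2. All mdx libraries were low and the groups stood well apart. Its fall was 2.74-fold (log2 fold change -1.45, SE 0.24, 95% interval -1.99 to -0.91, limma adjusted p = 0.00278). The call held under every one of the 14 alternatives tried.

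Slc2a3 encodes GLUT3, a glucose transporter of high affinity. Its normalized counts were 209, 283 and 229 in mdx, against 586 and 663 in wild type, with no overlap. It fell 2.6-fold (log2 fold change -1.38, SE 0.34, limma adjusted p = 0.019). Significance was lost without wild type 2 (limma adjusted p = 0.0828), without mdx 1 (0.0624) and without mdx 3 (0.0667), and with totals made equal (0.055).

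The other carriers were not called. Slc16a3, encoding the lactate exporter MCT4, had 207, 92 and 51 normalized counts in mdx and 371 and 278 in wild type, so that mdx lay below without a call (limma adjusted p = 0.0893). Its log2 fold change was -1.67, and -2.50 after the length and GC correction, where it was called (limma adjusted p = 0.0287). Slc2a1, encoding the widespread transporter GLUT1, had 604, 646 and 244 in mdx and 267 and 412 in wild type, and the groups overlapped. Slc2a4, encoding the insulin-regulated transporter GLUT4 of muscle and fat, was low, at 93, 82 and 29 in mdx and 13 and 27 in wild type, with all mdx libraries above and no call (limma adjusted p = 0.268). Its 95% interval, -0.64 to 3.82 on the log2 scale, leaves the size of the difference wide.

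In the upper steps of glycolysis, 1 of 9 tested rows rose and none fell (all tested genes: 14.6% and 10.3%). Hk1 encodes a hexokinase, which traps glucose in the cell as glucose 6-phosphate. It had 2456, 1984 and 2244 normalized counts in mdx, against 1472 and 1134 in wild type, and all mdx libraries were the higher ones. The rise was 1.72-fold (95% interval of log2 0.30 to 1.26, limma adjusted p = 0.027). It ended without wild type 2 (limma adjusted p = 0.128) and without mdx 1, 2 or 3 (0.102, 0.0643 and 0.0965). After correction for transcript length and GC content its log2 fold change was -0.015 (limma adjusted p = 0.967), so the direction of Hk1 depends on that choice.

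Aldoa, encoding the main aldolase of muscle and the highest member per length, was at 4009, 4321 and 4363 normalized counts in mdx and 4459 and 3980 in wild type. The groups overlapped, and its 95% interval on the log2 scale was narrow, from -0.36 to 0.37. Gpi1, encoding the isomerase that follows hexokinase, had 1337, 2210 and 1804 in mdx and 1446 and 991 in wild type. Tpi1, encoding triose phosphate isomerase, had 861, 599 and 498 in mdx, all below 902 and 903 in wild type, and was not called (limma adjusted p = 0.243). Hk2, encoding a hexokinase induced by insulin and hypoxia, overlapped at 300 to 579 in mdx and 252 and 561 in wild type. Aldoc was at 41, 0 and 0 in mdx and at 0 and 69 in wild type.

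Phosphofructokinase, which commits sugar to glycolysis, is built from subunits of 3 genes, none of which was called. Pfkp had 932, 1044 and 788 normalized counts in mdx, all below 1180 and 1622 in wild type (limma adjusted p = 0.111). It was called as lower after the length and GC correction, with a log2 fold change of -1.35 instead of -0.60 (limma adjusted p = 0.00607). Pfkl had 388, 390 and 411 in mdx, all above 201 and 325 in wild type (limma adjusted p = 0.243). Pfkm, the muscle form, overlapped at 258 to 592 in mdx and 446 and 373 in wild type.

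The PFKFB enzymes make and degrade fructose 2,6-bisphosphate, a strong activator of phosphofructokinase. Of their 4 genes 1 rose (all tested genes: 14.6%). Pfkfb3, the form with the highest kinase activity, had 922, 993 and 1168 normalized counts in mdx, against 213 and 628 in wild type. The mdx libraries were close together and the wild-type libraries were not. Its rise was 2.78-fold (95% interval of log2 0.52 to 2.43, limma adjusted p = 0.0325). Without wild type 1 the log2 fold change dropped to 0.70 (limma adjusted p = 0.121), and without wild type 2 it was 2.25. The call also ended without mdx 1, 2 or 3 (limma adjusted p = 0.121, 0.124 and 0.153) and after the length and GC correction (0.123).

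Pfkfb2 lay below in mdx, at 67, 90 and 49 against 182 and 276 in wild type, and was not called (limma adjusted p = 0.0697). It was called after the length and GC correction (limma adjusted p = 0.0482). Pfkfb4 had 149 to 279 in mdx and 96 and 305 in wild type. The X-linked Pfkfb1 was at 4, 68 and 0 in mdx and at 10 and 15 in wild type, and its 95% interval on the log2 scale ran from -4.37 to 3.17.

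In the lower steps of glycolysis, 1 of 8 rows rose and none fell (all tested genes: 14.6% and 10.3%). Eno3 encodes beta-enolase, the enolase typical of muscle fibers. Its normalized counts were 427, 1090 and 449 in mdx, against 173 and 83 in wild type. All mdx libraries were higher, with mdx 2 well above the other two. The rise was 4.88-fold (log2 fold change 2.29, SE 0.53, limma adjusted p = 0.0134). It was 1.77 on the log2 scale without wild type 2 and 2.81 without wild type 1. Omitting mdx 1, 2 or 3 ended the call (limma adjusted p = 0.0592, 0.0718 and 0.0665).

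Of 15 tested markers of muscle fibers, 5 were higher in mdx, 1 was lower and 9 were not called. Of all tested genes, 14.6% were higher and 10.3% lower. Ttn, encoding titin, had 37164, 64744 and 23685 normalized counts in mdx and 2475 and 2100 in wild type, with mdx 2 the highest as for Eno3. Ckm, encoding muscle creatine kinase, had 298, 63 and 229 in mdx and 178 and 78 in wild type, with mdx 2 the lowest of all, and was not called. Both were chosen after their values were seen. The list summed to 50345, 76421 and 33450 in mdx and 6294 and 4859 in wild type, most of it Ttn in mdx. Without Ttn it summed to 13181, 11677 and 9765 in mdx and 3819 and 2759 in wild type, so that mdx stayed above and mdx 2 was no longer the highest. None of the 15 was at 0 in both wild-type libraries. The part of fiber transcripts in the rise of Eno3 was not tested. Pgam2, the muscle form of phosphoglycerate mutase, was at 88, 2 and 29 in mdx and at 4 and 0 in wild type, with mdx 1 the highest.

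The remaining lower glycolytic genes were not called. Gapdh, encoding glyceraldehyde 3-phosphate dehydrogenase and often used as a constant reference, had 1903, 2212 and 2632 normalized counts in mdx. Its wild-type values were 3458 and 2841, both above every mdx library (log2 fold change -0.49, limma adjusted p = 0.116). It was called as lower after the length and GC correction (log2 fold change -0.74, limma adjusted p = 0.0273). Pgk1, which makes the first ATP of the pathway and lies on the X chromosome, had 299, 559 and 502 in mdx, below 749 and 654 in wild type (limma adjusted p = 0.187). Pkm, encoding the pyruvate kinase of muscle and proliferating cells, overlapped at 4115, 5695 and 4563 in mdx and 4783 and 2895 in wild type. Its splice forms M1 and M2 are not separated in gene-level values. Eno1, encoding the widespread enolase, overlapped at 1306, 2518 and 1257 in mdx and 1821 and 2170 in wild type. Pgam1 had 118 to 235 in mdx and 137 and 173 in wild type, and Eno2, the neuronal enolase, was at 17 to 74 in mdx and at 0 and 39 in wild type.

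Lactate dehydrogenase transcripts were lower in mdx. Ldha encodes the subunit that favours making lactate from pyruvate. It had 1311, 1809 and 1511 normalized counts in mdx, against 4741 and 4737 in wild type. Every mdx library was under every wild-type library by a wide margin. The fall was 3.09-fold (log2 fold change -1.63, SE 0.20, 95% interval -2.08 to -1.18, limma adjusted p = 0.000599), the smallest p among the members. Ldha stayed called under all 14 alternatives, with log2 fold changes from -1.75 to -1.44 and limma adjusted p up to 0.036.

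Ldhb encodes the subunit that favours the use of lactate. Its values were 56, 226 and 181 in mdx, all below 500 and 351 in wild type. The log2 fold change of -1.65 was about that of Ldha, but with an SE of 0.63 it was not called (limma adjusted p = 0.0861). Together the 2 genes summed to 1367, 2035 and 1692 normalized counts in mdx and 5241 and 5088 in wild type. The carriers MCT1 and MCT4 summed to 851, 819 and 589 in mdx and 2189 and 1930 in wild type.

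At the entry of pyruvate into mitochondria and at the pyruvate dehydrogenase complex, 3 of 8 genes fell and none rose. Of all tested genes, 10.3% fell and 14.6% rose. Pdhb encodes the beta subunit of the first enzyme of the complex. It had 329, 455 and 495 normalized counts in mdx, against 1387 and 1081 in wild type, and the groups stood apart. It fell 2.91-fold (95% interval of log2 -2.21 to -0.87, limma adjusted p = 0.00591). The call held in 13 of 14 alternatives, the exception being limma with neither a variance trend nor robust moderation (limma adjusted p = 0.0537). The partner subunit Pdha1, on the X chromosome, had 1363, 1968 and 1181 in mdx and 1682 and 1651 in wild type. The groups overlapped, and its 95% interval on the log2 scale was -0.75 to 0.39. The difference between the subunits was not tested.

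Of the 4 kinases that shut the complex, 2 fell and none rose (all tested genes: 10.3% and 14.6%). Pdk1, a hypoxia-induced form, had the largest fall among called members, with 32, 100 and 28 normalized counts in mdx against 376 and 329 in wild type. It fell 7.52-fold (log2 fold change -2.91, SE 0.72, limma adjusted p = 0.0184). The call ended without wild type 1 or 2 (limma adjusted p = 0.0571 and 0.0507) and without mdx 1 or 3 (0.075 and 0.0755). Pdk4, a form induced by fasting and fatty acids and the most abundant kinase in both genotypes, had 840, 698 and 768 in mdx and 1468 and 1981 in wild type. The libraries did not overlap. Pdk4 fell 2.22-fold (95% interval of log2 -1.69 to -0.62, limma adjusted p = 0.00822), and was not called without wild type 2 (0.0507) or mdx 3 (0.0509).

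Pdk2 had 203, 190 and 257 normalized counts in mdx, all above 165 and 107 in wild type, with no call (limma adjusted p = 0.321). The X-linked Pdk3 overlapped at 62 to 226 in mdx and 186 and 52 in wild type. The mitochondrial pyruvate carrier genes were low. Mpc1 was at 16, 27 and 47 in mdx and 42 and 77 in wild type, and Mpc2 at 98, 57 and 159 in mdx and 124 and 244 in wild type.

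Levels of different genes were compared per length, as normalized counts per kb of the longest principal transcript. Aldoa was the highest member in both genotypes, at 2800 ± 128 per kb in mdx and 2792 ± 224 per kb in wild type. In mdx it was followed by Pkm (1970 ± 335 per kb), Gapdh (1584 ± 258 per kb), Ldha (874 ± 142 per kb) and Eno1 (836 ± 352 per kb). The libraries of Pkm and Gapdh overlapped, as did those of Ldha and Eno1. In wild type the next after Aldoa was Ldha (2684 ± 2.12 per kb), whose libraries lay within the range of Aldoa, then Gapdh (2218 ± 307 per kb) and Pkm (1578 ± 549 per kb). Ldha was thus the fourth member by level in mdx and the second in wild type.

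Shares within isozyme families were computed from the same per-kb levels and are given as a description, without a test. In 5 of 10 families at least 1 member's share did not overlap between genotypes. Shares of a family sum to a fixed total and each family gives 2 to 4 of them, and over all tested genes the levels did not overlap in 28.2% (mdx above) and 23.8% (mdx below), so this count is not read as a result. Eno3 made 29.5%, 35.8% and 30.8% of the enolase level in mdx, against 11.0% and 4.67% in wild type, and Eno1 made most of the rest. With merged exons of all transcripts as the length, Eno3 made 49.8%, 57.1% and 50.9% in mdx and 22.7% and 10.4% in wild type, so it led the family in mdx on that scale only. Pfkfb3 made 72.5%, 60.6% and 82.4% of the PFKFB level in mdx, against 38.2% and 46.1% in wild type. Pfkfb2 made 5.52%, 5.75% and 3.62% in mdx, against 34.2% and 21.2% in wild type. Pfkfb3 thus made most of the family's level in every mdx library and less than Pfkfb2 and Pfkfb4 together in both wild-type libraries.

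The share of Pdk2 among the kinases was 24.6%, 20.6% and 29.9% in mdx, against 11.2% and 6.76% in wild type, and that of Pdk1 was 1.68%, 4.69% and 1.41% in mdx, against 11.1% and 9.01% in wild type. Slc2a1 gave 61.6% ± 8.47 of the level of the 3 glucose carriers in mdx and 38.2% ± 4.71 in wild type, where Slc2a3 led with 59.0% ± 5.64. In the other 9 families the leading form by mean share was the same in both genotypes. Single libraries could differ. Pgam2 led phosphoglycerate mutase in mdx 1, at 61.2%, but made 1.77% in mdx 2 and 21.6% in mdx 3. Pfkm led phosphofructokinase in mdx 3, at 40.6% against 37.6% for Pfkp. With merged exons as the length, the leading form by mean share was another in 3 families. Slc2a1 then led the glucose carriers in wild type too, at 50.8% ± 4.84, Eno3 led enolase in mdx, and Pfkm led phosphofructokinase in place of Pfkp in both genotypes. Within lactate dehydrogenase the make-up overlapped, with Ldha at 88.7% ± 5.06 in mdx and 89.2% ± 2.39 in wild type.

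**Figure D3:**
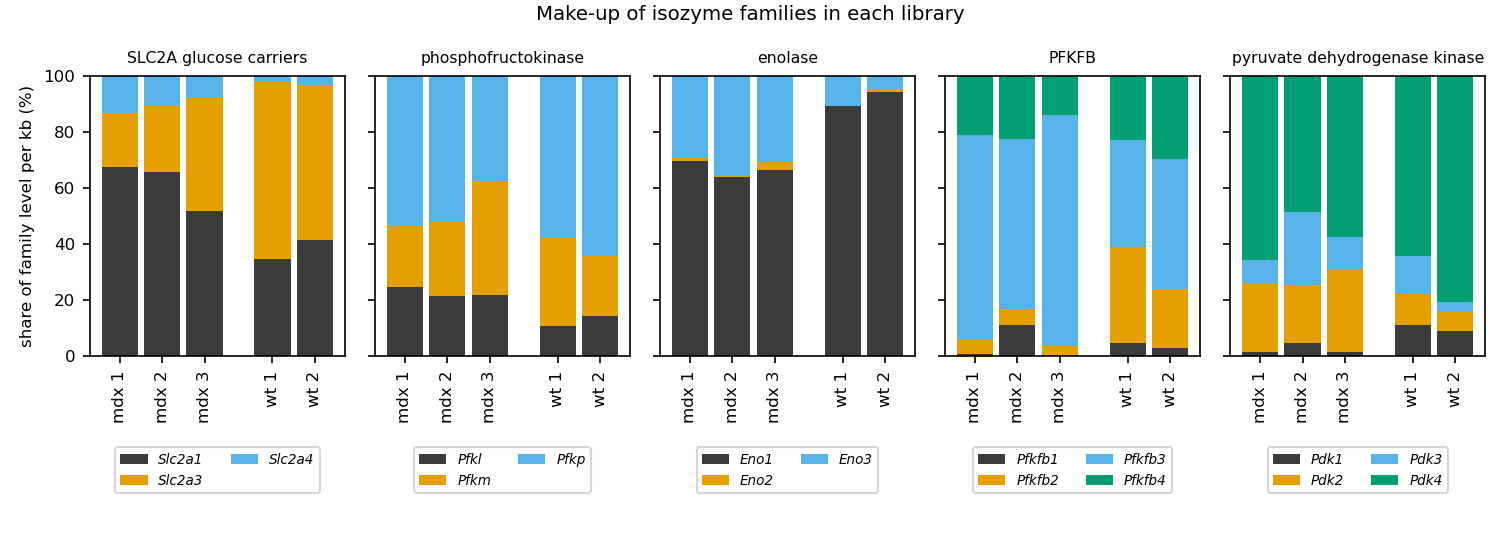
Stacked bars give each isozyme's share (%) of its family's summed level per kb, 1 bar per library with mdx left of wild type, for the 5 families with a share that did not overlap. Eno3 makes 29.5% to 35.8% of enolase in mdx libraries and 4.67% to 11.0% in wild-type libraries.

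Beyond the members, a list of 49 other genes of glycolysis and pyruvate use had 40 tested genes, of which 3 rose and 3 fell (7.5% each, against 14.6% and 10.3% of all tested genes), with a median log2 fold change of -0.30. Mdh1, encoding the cytosolic malate dehydrogenase, had 452, 477 and 524 normalized counts in mdx and 1764 and 1847 in wild type (limma adjusted p = 0.00062). Dld, encoding a subunit shared by pyruvate dehydrogenase and related complexes, had 728, 648 and 909 in mdx and 2227 and 1609 in wild type (limma adjusted p = 0.00602). Gpd2, encoding a mitochondrial glycerol phosphate dehydrogenase, rose, with 368, 542 and 364 in mdx and 86 and 75 in wild type (limma adjusted p = 0.00497). Slc2a12, encoding a glucose transporter, fell, with 568, 297 and 626 in mdx and 2162 and 2501 in wild type (limma adjusted p = 0.00156). The remaining called genes, Hk3 and Slc16a7, were both higher and are named after their values were seen.

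Of 26 listed regulators of glycolysis, 5 rose and 3 fell (19.2% and 11.5%), shares near the background of 14.6% and 10.3%. Epas1, encoding the hypoxia-inducible factor HIF-2 alpha and abundant in endothelium, had 4719, 4159 and 4697 normalized counts in mdx and 106 and 126 in wild type (limma adjusted p = 2.95e-06). Foxk1 and Ppargc1b, encoding regulators of transcription, also rose (limma adjusted p = 0.0025 and 0.00811), and Mlxipl, encoding the glucose-sensing factor ChREBP, fell (0.0215). In the TCA cycle, which burns the acetyl groups that pyruvate dehydrogenase makes, 1 of 19 genes rose and 4 fell (5.26% and 21.1%, beside the same background), with a median log2 fold change of -0.52. Sdha, Suclg2 and Suclg1 had log2 fold changes of -2.0, -2.18 and -1.63 (limma adjusted p = 0.000148, 0.00784 and 0.0112), and Mdh2 of 0.74 (0.0241).

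Some members have near-identical copies or overlapping genes, with which reads could be shared. A search of annotated pseudogenes and retrogenes in the table found copies with at least 90% identity over 200 bases for 8 members. Gapdh had 41 such copies, which summed to 528, 681 and 521 normalized counts in mdx and 650 and 1160 in wild type, up to 40.8% of its own value. Copies of Mpc1 reached 96.1% of its value in wild type 2, and the copy of Pgam1 had 45 in mdx 2, where Pgam1 had 235. The 4 copies of Ldha summed to 122, 58 and 156 in mdx and 73 and 253 in wild type. Whether reads were shared between Ldha and its copies was not tested. Pdhb had 1 copy, at 0 to 2 in mdx and 0 and 9 in wild type. By coordinates, 16 of the 37 rows overlapped another gene of the table, and the strand setting of the counting is not given in the sources used here.

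**Figure D4:**
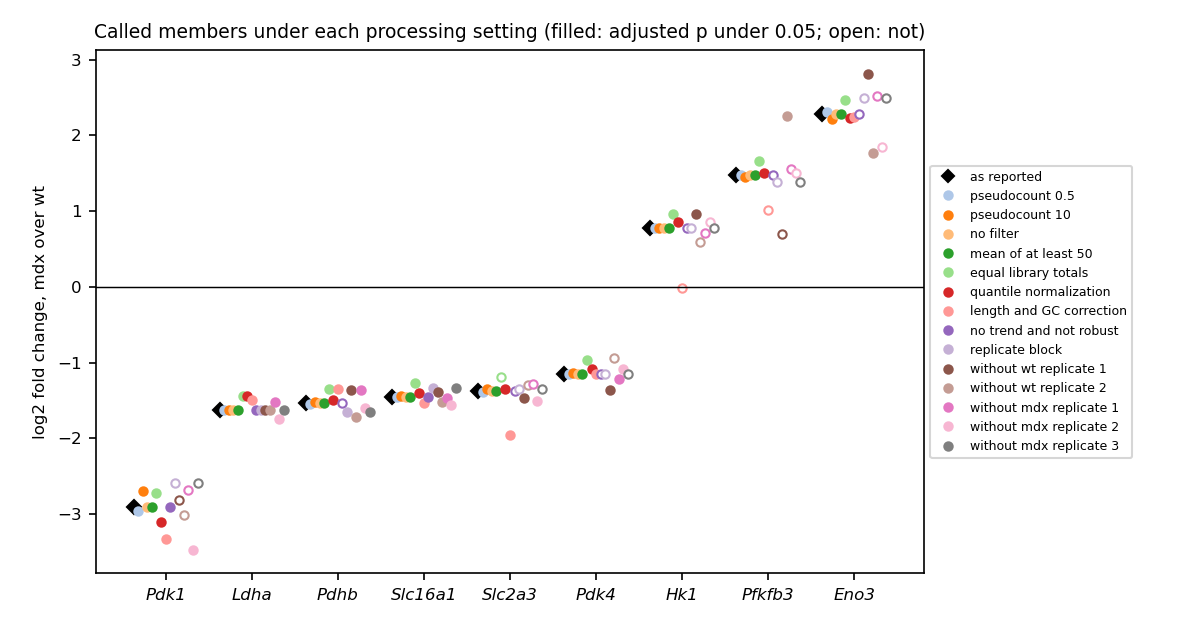
Log2 fold change of the 9 called members as reported (black diamond) and under 14 alternatives (coloured points). Filled symbols have a limma adjusted p under 0.05 and open symbols do not. Ldha and Slc16a1 are filled throughout, whereas Hk1 reaches -0.015 under the length and GC correction.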

How the data were processed

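Total RNA libraries from sorted cells were made with a low-input stranded kit, per the labels' protocols. The submitters' processing notes name STAR 2.6.1d, featureCounts 1.6.3, DESeq2 1.18.1 and mm10. The sources used here do not state how multi-mapped reads, strand and filters were set. The deposited values are whole numbers treated as a score: per the values themselves, counts that the authors divided by a size factor for each library and rounded. Raw counts were not recovered.

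The 18199 genes that reached 10 in 2 or more libraries were tested on log2(value + 2) with limma 3.58.1 in R 4.3.3, with genotype as the only term, trended robust moderation and Benjamini-Hochberg adjustment at 0.05. The design had allowed for a count model only if the values were raw. Alternatives changed the pseudocount, filter, scaling, moderation, length and GC correction, replicate block and libraries. Only the limma fit and its calls were tried on simulated data, with independent noise and far fewer changed genes than were called here. The other steps were not simulated. Lengths and GC content came from GENCODE M21, with 22649 of 22683 identifiers matched, 17202 with equal coordinates. Copies were found with blastn 2.17.0, and promoters came from RefSeq.

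The members and lists were chosen with earlier results of these data known. All members are named, and for every other pathway list the text names the called genes of lowest p, at most 4, or 2 uncalled ones where there were none. Exceptions are stated in the text as chosen after their values were seen. Marker lists are given as counts and sums.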

Additional observations from a re-analysis of the deposited data

How the results depend on the processing

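Ldha and Slc16a1 were called as lower under all 14 alternatives, and Pdhb under 13. With pseudocounts of 0.5 or 10, without a filter, or with a mean of at least 50, the same 9 members were called. Over all tested genes the log2 fold change had a median of 0.135, and of 0.312 with equal library totals, 0.278 without a filter, 0 after quantile normalization and -0.033 after the length and GC correction, so directions are relative to those centres. Equal totals gave a members' median of -0.057, 1 lower regulator instead of 3, and values of 0.006 for Pdha1 and 0.095 for Pfkm. Quantile normalization gave -0.051 for Pdk3. The length and GC correction called 1 member as higher and 10 as lower, with a members' median of -0.448 and with Hk1 at -0.015, Hk2 at -0.47, Pfkl at -0.12, Pfkfb4 at -0.23, Aldoa at -0.27 and Pkm at -0.12. The cause was not tested. Limma without trend and robust moderation called 3005 genes in all, with 0 members higher (2 at an unadjusted p under 0.05) and 3 lower (Ldha, Slc16a1 and Pdk1).

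Replicate numbers 1 and 2 are shared between genotypes, but same-numbered libraries did not deviate together (Pearson's r across 18199 genes of -0.014 and -0.017). Number 3 occurs only in mdx, so a block on the number takes mdx 3 out of the genotype estimate. Blocking limma on the replicate number called 2023 genes, 0 members as higher (3 at an unadjusted p under 0.05) and 3 as lower (Ldha, Slc16a1 and Pdhb). The members' median was then -0.079, as without mdx 3, with Pfkfb1 at 0.52 and Aldoa at -0.017. With 1 library left out in turn, 2231 to 4281 genes were called, with 0 to 2 members higher (at 0, without an mdx library, 3 or 4 had an unadjusted p under 0.05), 3 to 6 lower and a members' median of -0.435 to -0.079. Where a wild-type library is left out, the other is assumed to vary like mdx libraries. Over these fits the log2 fold change spanned 0 for Aldoa (-0.077 to 0.087), Aldoc (-3.67 to 1.48), Eno2 (-0.29 to 4.07), Hk2 (-0.44 to 0.71), Pdk3 (-0.77 to 1.03), Pfkfb1 (-2.04 to 0.52), Pfkfb4 (-0.58 to 1.07), Pfkm (-0.41 to 0.19) and Pkm (-0.011 to 0.71). Depth limits Aldoc, Pgam2, Eno2, Pfkfb1, Mpc1 and Slc2a4, which had values under 100 in every library.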

Other observations

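Glycogen metabolism, which stores and releases glucose, held 3 genes that fell in mdx among 20 tested, and none that rose (15% lower, against 10.3% of all tested genes), with a median log2 fold change of -0.27. Gbe1, encoding the branching enzyme, had 241, 353 and 538 normalized counts in mdx and 1485 and 1846 in wild type (limma adjusted p = 0.00261). Stbd1, encoding a glycogen-binding protein of lysosomal transport, had 303, 105 and 382 in mdx and 891 and 873 in wild type (limma adjusted p = 0.0274). Phkb, encoding a subunit of phosphorylase kinase, had 502, 589 and 518 in mdx and 913 and 1115 in wild type (limma adjusted p = 0.0314).

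In the pentose phosphate pathway, a branch from glucose 6-phosphate that yields NADPH and ribose, limma called 0 of 10 tested genes, and 3 had an unadjusted p under 0.05. Prps1, encoding an enzyme that activates ribose for nucleotide synthesis, had 214, 343 and 250 normalized counts in mdx and 454 and 771 in wild type (limma adjusted p = 0.0588). Its relative Prps2 had 351, 216 and 338 in mdx and 528 and 634 in wild type (limma adjusted p = 0.0805).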
